A study of Mus musculus with 6 samples.

Results

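The genes described here carry retinol to the pigment epithelium or act in the visual cycle there. They are Ttr, Rbp4 and Stra6 for carriage and uptake, Rdh10, Rdh5 and Rlbp1 for oxidation and binding, Lrat and Rpe65 for esterification and isomerisation, and Rgr, an opsin. The members were given by name. The platform annotation assigned 14 probe sets to exactly 1 of the 9 genes, out of 18193 genes with a probe set of their own on the array, and the brightest probe set over all arrays stands for its gene.

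The series holds 6 Affymetrix arrays of tissue labelled as retinal pigment epithelium (RPE), taken from mouse embryos at embryonic day 13.5. The first group is 3 pools of genotype albino and the second is 3 pools of genotype control (pigmented), each pool joining tissue of 3 to 4 littermates. Neither strain nor mutated gene is named, and no treatment is given for either group. They describe an eyecup freed of cornea, lens, neural retina and surrounding tissue, while the sample descriptions speak of the whole eye region. Values are deposited log2 expression values, so a difference of 1 is a doubling, and all differences below are albino minus pigmented.

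All 9 genes are annotated as protein coding on GRCm38.p6. Ttr lies at chr18:20664209-20674326, Rbp4 at chr19:38116620-38125321 and Stra6 at chr9:58063793-58154004. Rdh10 lies at chr1:16105882-16132550, Rdh5 at chr10:128913588-128920037 and Rlbp1 at chr7:79374865-79392250. Lrat and Rpe65 share a chromosome, at chr3:82892582-82903974 and chr3:159599075-159625307, and Rgr lies at chr14:37034909-37049014.

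Photoreceptors detect light with a vitamin A derivative that changes shape when it absorbs a photon, and the RPE renews it. Retinol arrives in the blood bound to retinol-binding protein and transthyretin, enters the RPE through the receptor STRA6, is stored as an ester by LRAT, and is turned into its cis form by RPE65. RDH5 oxidises that product to cis-retinal and CRALBP, the product of Rlbp1, binds it. In the embryo the photoreceptors that use this cycle are not yet mature, whereas retinol is already the source of the signalling molecule retinoic acid, whose synthesis begins with RDH10.

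The pools held more than RPE. RPE identity genes read high, with list means of 9.24 to 9.60 on the 6 arrays and Pmel, the melanosome fibril gene, at 12.56 over all arrays. Periocular mesenchyme markers had list means of 11.01 to 11.24, with Col1a2 at 13.46, and the erythroid gene Hbb-y read 14.29. Neural retina markers had list means of 6.73 to 7.28 in albino and 6.96 to 7.52 in pigmented pools, a mean difference of -0.22. Of the 9 tested, 8 were lower in albino pools, against 35.6% of all tested probe sets, and 0 passed in limma. The brightest of them, Nefl, was higher in albino pools by 0.60 (SE 0.26). Skeletal muscle markers had list means of 8.66 to 9.28 in albino and 7.24 to 8.17 in pigmented pools, without overlap. For 11 of the 12 genes every albino array lay above every pigmented array, as for 7.39% of all tested probe sets. The other gene, Ckm, was lower in albino pools (-0.20), and 0 of the 12 passed in limma. Lens markers stood at 4.97 on the albino replicate 3 array and at 6.94 to 7.18 on the others. Y-linked genes had list means of 7.06 to 7.99 in albino pools and of 7.39, 2.32 and 5.98 in pigmented pools 1 to 3, so the pools differed in their Y-linked signal, which was lowest in pigmented replicate 2. The replicate 1 arrays of both genotypes stood apart from the other 4 arrays on the first principal component, which held 68.9% of the variance. In such bulk tissue fewer cells of a type and less RNA per cell cannot be told apart.

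Transcripts of the retinol carriers and of the oxidising and binding steps were read clearly in these mixed pools. Those of the storage, isomerisation and opsin steps were not. Which cells of the pools gave each signal was not tested. Of the 9 genes, 6 had a mean of 5 or more over the arrays (Ttr, Rbp4, Stra6, Rdh10, Rlbp1 and Rdh5) and 3 did not (Lrat, Rgr and Rpe65). As a reference for dim signals, 80 probe sets of olfactory and vomeronasal receptor genes, whose products serve smell, had means with a 5th percentile of 2.15, a median of 2.82 and a 95th percentile of 4.30. The 6 brighter members read above each of these 80 probe sets. Lrat, Rgr and Rpe65 read inside their range, with 31, 31 and 27 of the 80 above them. Probe sets differ in how strongly they bind, so a dim value does not show that a transcript was absent, and members are not ranked against each other.

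**Figure D1:**
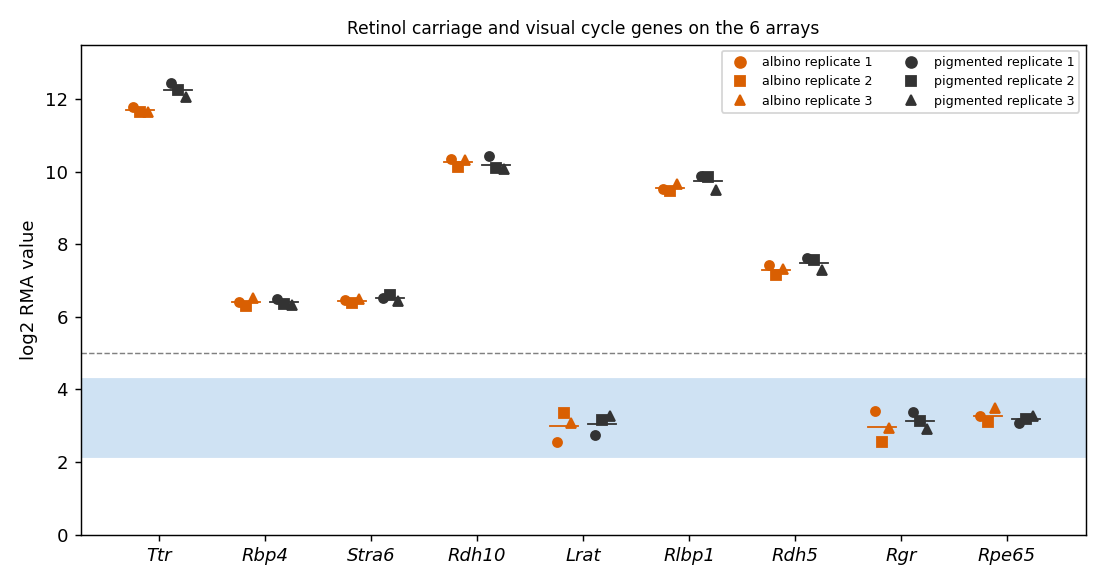
Deposited log2 values (vertical axis) of the representative probe set of each of the 9 genes (horizontal axis); symbols are single arrays, short lines are genotype means, the shaded band spans the 5th to 95th percentile (2.15 to 4.30) of 80 chemosensory receptor probe sets, and the dashed line marks 5. Lrat, Rgr and Rpe65 lie in the band on all 6 arrays, the other 6 genes lie above the line, and only for Ttr do the genotypes not overlap.

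The genotypes were compared with limma over 23591 probe sets with a mean of 5 or more. No probe set passed, with 0 at a Benjamini-Hochberg adjusted p under 0.05, which is 0% of those tested, and 1104 at an unadjusted p under 0.05. Among the 6 members tested 0 passed the adjusted threshold. Of these, 4 had a negative difference and 2 a positive one, with a median of -0.13, while 35.6% of all tested probe sets were lower in albino pools and their median difference was 0.05. With cyclic loess scaling in place of the deposited scaling, 46.8% of all probe sets and 5 of the 6 members were lower.

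Ttr encodes transthyretin, the blood carrier of thyroxine and of the retinol-binding protein complex, known as a product of RPE, choroid plexus and liver. Its representative probe set, 1454608_x_at, read 11.79, 11.64 and 11.65 on albino arrays 1 to 3 and 12.44, 12.24 and 12.07 on pigmented arrays 1 to 3. Every albino array lay below every pigmented array. Means were 11.69 ± 0.08 and 12.25 ± 0.19 (SD, n = 3 each), a difference of -0.56 (SE 0.12, 95% confidence interval -0.85 to -0.27), or 1.47-fold higher in pigmented pools. The unadjusted p in limma was 0.00291 and the adjusted p was 0.644, so the difference did not pass over the whole table. Over the other settings tried, its limma adjusted p ranged from 0.0728 to 1. Arrays with the same replicate number differed by -0.65, -0.60 and -0.42.

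The 3 other Ttr probe sets separated the genotypes in the same way. Probe set 1459737_s_at read 10.80 to 11.14 in albino and 11.19 to 11.65 in pigmented pools, a difference of -0.52 (SE 0.16). Probe set 1455913_x_at read 10.53 to 10.68 and 11.05 to 11.33, a difference of -0.64 (SE 0.11). Probe set 1451580_a_at, whose name carries neither the _x nor the _s mark of probes that may match other transcripts, read 9.14 to 9.52 and 9.57 to 9.79, a difference of -0.43 (SE 0.13). None of these passed, with limma adjusted p of 0.923, 0.500 and 0.932. All 4 probe sets measure the same RNA and are not independent. Among all tested probe sets, 3.44% had every albino array below every pigmented array, and 1.46% were lower at an unadjusted limma p under 0.05. Of the 6 tested members 1, Ttr, met both descriptions.

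**Figure D2:**
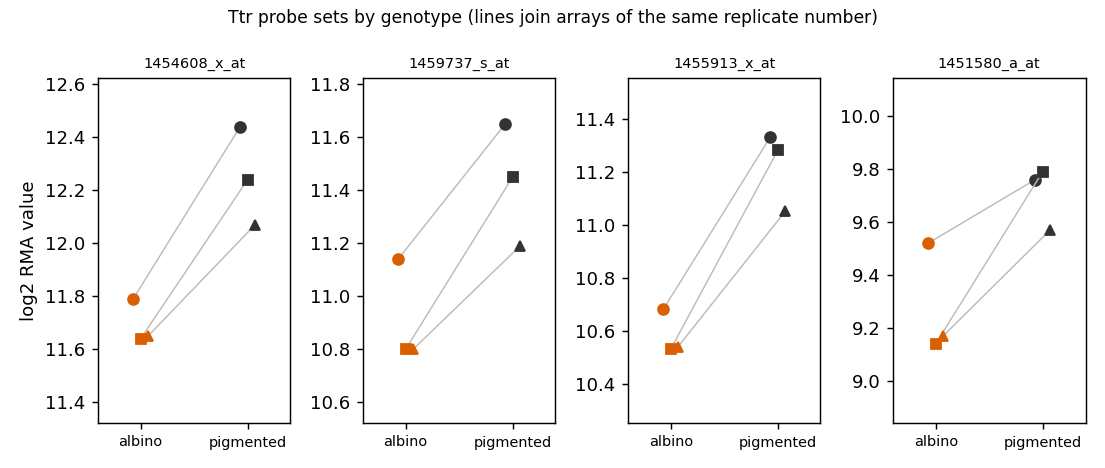
Deposited log2 values (vertical axes, each spanning the same width of 1.3 around the mean of that probe set) of the 4 Ttr probe sets in albino (orange) and pigmented (black) pools; circles are replicate 1, squares replicate 2 and triangles replicate 3, and grey lines join arrays of the same replicate number. In each panel the 3 albino arrays lie below the 3 pigmented arrays.

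The level of Ttr was set beside that of other pigment epithelium genes on the same arrays. Means of the RPE identity list, which does not hold Ttr, were 9.43, 9.24 and 9.36 in albino pools against 9.60, 9.45 and 9.39 in pigmented pools, with 13 of its 14 tested genes lower in albino pools, 0 passing in limma, and a mean difference of -0.14. For 5 of the 14, Mitf, Mlana, Oca2, Kcnj13 and Trpm3, every albino array lay below every pigmented array on the deposited scale, as for Ttr. Over all tested probe sets on that scale, 35.6% were lower in albino pools and 3.44% had every albino array below every pigmented array. The lowest difference among the 14 was that of the ion channel gene Trpm3, at -0.32 (SE 0.09), with a limma adjusted p of 0.871. Relative to that list mean, Ttr stood at 2.36, 2.40 and 2.29 log2 units in albino and 2.84, 2.79 and 2.68 in pigmented pools, again without overlap. The difference on this scale was -0.42 (SE 0.08, limma adjusted p = 0.222). Centring on the list, a choice made after the data were seen, moved the median difference of all probe sets to 0.19 and left 3 of the 6 members lower. On this scale 0.64% of all tested probe sets had every albino array below every pigmented array, as Ttr did, and 31.6% had every albino array above. Rdh10 (0.21) and Rbp4 (0.16) were among the latter, with differences close to that median.

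Markers of other tissues that make Ttr or that differed between the pools were read beside it. Of the 8 choroid plexus markers 7 had a probe set, of which Kl and Htr2c were dim at 3.08 and 2.61 and Kcne2 at 4.76. The 4 brighter ones were Slc4a5, Clic6, Aqp1 and Folr1, all with lower means in albino pools and 0 passing in limma. Slc4a5, a bicarbonate transporter gene, read 8.66 to 8.82 in albino and 8.98 to 9.27 in pigmented pools without overlap, a difference of -0.39 (SE 0.11). Its unadjusted p in limma was 0.00956 and its adjusted p was 0.866. List means of the 4 were 8.12 to 8.26 in albino and 8.31 to 8.53 in pigmented pools. Of 7 liver and yolk sac markers 5 were below 5, Alb among them at 3.81, and list means of the other 2 ran from 4.42 to 7.51 in albino and 3.89 to 6.18 in pigmented pools. Afp, a serum protein gene of yolk sac and liver, read 6.82, 9.27 and 3.42 in albino pools against 2.64, 6.88 and 3.87 in pigmented pools. Ttr on the same arrays read 11.79, 11.64 and 11.65 against 12.44, 12.24 and 12.07, and the relation between the 2 genes was not tested. Skeletal muscle list means were 9.22, 9.28 and 8.66 in albino pools against 7.54, 7.24 and 8.17 in pigmented pools. Between arrays of the same number Ttr differed by -0.65, -0.60 and -0.42. The gap was smallest on the replicate 3 arrays for the muscle list and for Ttr, and also for the RPE identity list. It was largest on the replicate 2 arrays for both lists and on the replicate 1 arrays for Ttr. Macrophage list means did not overlap either, at 7.04 to 7.19 in albino and 6.87 to 7.03 in pigmented pools. Of the 6 genes 4 were higher in albino pools, with Aif1 (0.45, SE 0.16) and C1qc (0.40, SE 0.11) showing the largest differences. The 2 brightest, Csf1r and C1qb, had lower means in albino pools, with differences of -0.10 (SE 0.09) and -0.04 (SE 0.13). Over all tested probe sets 35.6% were lower in albino pools. All 6 surface ectoderm genes had higher means in albino pools, Krt15 by 0.61 (SE 0.23) and Epcam by 0.44 (SE 0.16). Krt5, Trp63 and Krt14 differed by only 0.02, 0.03 and 0.09. List means overlapped, at 7.29 to 8.03 in albino and 7.29 to 7.47 in pigmented pools. No gene of the marker lists passed in limma. The part of these tissues in the Ttr difference was not tested.

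**Figure D3:**
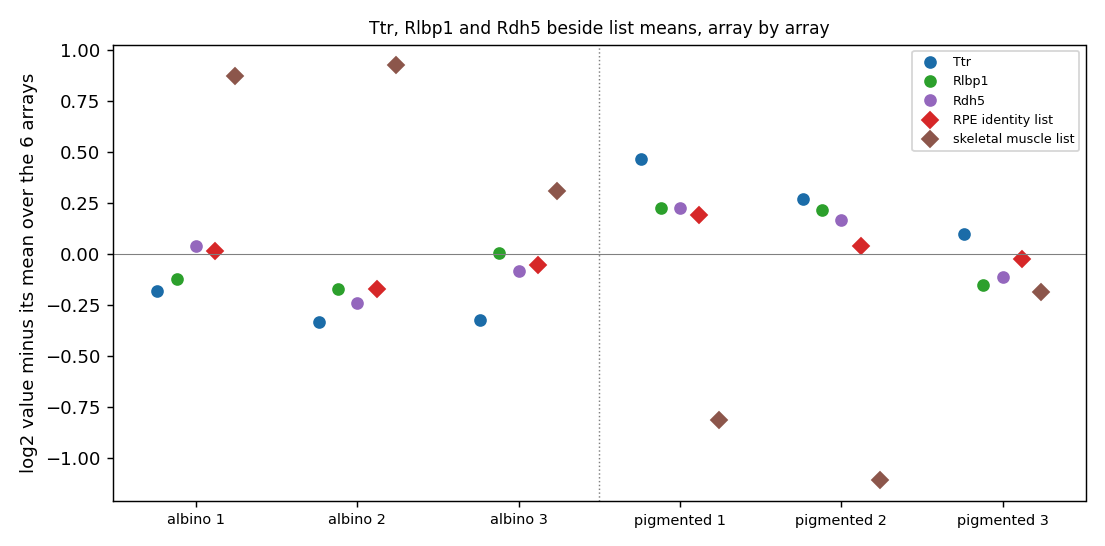
Log2 value on each array minus the mean over the 6 arrays (vertical axis) for Ttr, Rlbp1 and Rdh5 (circles) and for the means of the RPE identity and skeletal muscle lists (diamonds), by array (horizontal axis; the dotted line parts the genotypes). Ttr is below its mean on the 3 albino arrays and above it on the 3 pigmented arrays, the muscle list is the reverse, and Rlbp1 and Rdh5 are lower on pigmented than on albino replicate 3.

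Rbp4 encodes the retinol-binding protein that takes retinol through the blood. It read 6.40, 6.31 and 6.53 in albino pools against 6.49, 6.36 and 6.34 in pigmented pools, and the genotypes overlapped. The difference was 0.02 (SE 0.10, 95% confidence interval -0.22 to 0.26, limma adjusted p = 0.999). Its only probe set, 1426225_at, thus did not share the pattern of its partner Ttr, and the difference between the 2 genes was not tested.

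Stra6 encodes the membrane receptor that passes retinol from RBP4 into the cell. Its values were 6.47, 6.39 and 6.48 in albino pools against 6.51, 6.61 and 6.43 in pigmented pools. These overlapped, with a spread over all 6 arrays of 0.08 (SD), and the difference was -0.07 (SE 0.09, 95% confidence interval -0.29 to 0.15). Relative to the RPE identity list the sign turned, to 0.07.

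Rdh10 encodes the enzyme that oxidises retinol to retinal, a step shared by the visual cycle and retinoic acid synthesis. Probe set 1426968_a_at read 10.35, 10.12 and 10.32 in albino pools against 10.42, 10.10 and 10.06 in pigmented pools. The genotypes overlapped and the highest values came from the replicate 1 arrays of both. The difference was 0.07 (SE 0.13, 95% confidence interval -0.25 to 0.39). The second probe set, 1460632_at, gave the opposite sign, at -0.07 (SE 0.12), and their mean gave 0.00, so the direction for Rdh10 depends on the probe set.

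Rlbp1 encodes CRALBP, the protein that holds cis-retinoids in RPE and in Müller glia. It read 9.52, 9.47 and 9.65 in albino pools against 9.87, 9.86 and 9.49 in pigmented pools. Pigmented replicates 1 and 2 lay above all other arrays, while pigmented replicate 3 lay among the albino arrays. The means were 9.55 ± 0.09 and 9.74 ± 0.22 (SD, n = 3 each), with a difference of -0.19 (SE 0.13, 95% confidence interval -0.51 to 0.12, limma adjusted p = 0.999). Without pigmented replicate 3 it was -0.32, without pigmented replicate 1 or 2 it was -0.13, without both replicate 1 arrays -0.12, and with array weights -0.096.

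Rdh5 encodes the dehydrogenase that makes cis-retinal in the RPE. Its values were 7.43, 7.15 and 7.31 in albino pools against 7.62, 7.56 and 7.28 in pigmented pools. As for Rlbp1, pigmented replicates 1 and 2 were highest and pigmented replicate 3 overlapped the albino arrays. The difference was -0.19 (SE 0.13, 95% confidence interval -0.50 to 0.12, limma adjusted p = 0.999), or -0.29 without pigmented replicate 3, -0.12 without pigmented replicate 1 and -0.12 without albino replicate 2. Relative to the RPE identity list the differences of Rlbp1 and Rdh5 were both -0.05. The probe set 1422614_s_at was not used, because the annotation gives it to Rdh5 and Bloc1s1 together. It read 9.67 over all arrays with a difference of 0.14, and which gene it measured was not tested.

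Lrat encodes the enzyme that stores retinol as retinyl ester. Its brighter probe set, 1444487_at, read 2.55, 3.36 and 3.08 in albino pools against 2.75, 3.15 and 3.26 in pigmented pools, and its other probe set, 1421345_at, read 2.35 to 2.78. Rgr encodes an opsin of RPE and Müller glia that binds retinal. It read 3.42, 2.55 and 2.95 in albino pools against 3.38, 3.12 and 2.91 in pigmented pools. Rpe65 encodes the isomerase that makes cis-retinol from the ester. It read 3.26, 3.09 and 3.49 in albino pools against 3.07, 3.18 and 3.27 in pigmented pools. For all 3 genes the genotypes overlapped and every array lay below 5, so no genotype test was made.

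Start regions are shown for the dim genes Rgr, Lrat and Rpe65 and for Rbp4 and Rlbp1, which were read above 5. They come from RefSeq on GRCm38.p6. Rdh10 had no matching entry and Ttr was left out of the search, which covered the other 7 of the 9 members. The 250 bases before 11 start sites of these 7 genes were searched on both strands for TAATCC, the core recognised by OTX factors, and for the E-boxes CATGTG and CACGTG, which MITF can bind. These motifs were found in 6.25%, 12.3% and 6.02% of 32851 such windows over all genes. TAATCC was found before the start sites searched for Rgr and for Rpe65. CATGTG was found before those of Rpe65 and Rlbp1, and CACGTG before none of the 11. Some of these start sites lie inside the annotated span of their gene, among them those of Rlbp1, Stra6 and Rdh5. None of the matches overlapped another. A match is a run of letters and says nothing here about binding. Printed 5′ to 3′ on the strand of the gene, with matches in capitals, the windows of Rgr (chr14:37049015-37049264, minus strand), Lrat (chr3:82903975-82904224, minus strand) and Rbp4 (chr19:38125322-38125571, minus strand) lie upstream of the gene.
Rgr: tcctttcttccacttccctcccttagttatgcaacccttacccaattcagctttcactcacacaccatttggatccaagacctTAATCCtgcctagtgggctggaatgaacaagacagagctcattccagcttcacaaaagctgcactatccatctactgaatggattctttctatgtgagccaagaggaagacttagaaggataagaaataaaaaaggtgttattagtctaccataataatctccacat
Lrat: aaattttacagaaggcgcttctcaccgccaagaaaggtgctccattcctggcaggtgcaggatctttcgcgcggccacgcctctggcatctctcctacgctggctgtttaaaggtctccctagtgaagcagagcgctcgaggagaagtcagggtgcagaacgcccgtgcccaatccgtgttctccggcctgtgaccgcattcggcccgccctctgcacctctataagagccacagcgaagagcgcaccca
Rbp4: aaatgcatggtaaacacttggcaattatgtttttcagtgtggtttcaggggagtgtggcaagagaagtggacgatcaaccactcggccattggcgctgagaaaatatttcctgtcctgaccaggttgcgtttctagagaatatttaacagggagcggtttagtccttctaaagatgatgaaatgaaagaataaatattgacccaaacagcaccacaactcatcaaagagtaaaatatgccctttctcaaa

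For Rpe65 and Rlbp1 the 30 bases around a match are given, at chr3:159599127-159599156 on the plus strand and chr7:79387134-79387163 on the minus strand. The Rpe65 match to TAATCC is read on the opposite strand and begins 42 bases before the start site. The Rlbp1 match to CATGTG is also read on the opposite strand and begins 124 bases before its start site. Both stretches lie inside the annotated spans of their genes, at chr3:159599075-159625307 and chr7:79374865-79392250, and not upstream of them.
Rpe65: ctcctccaataaGGATTAgattgcatacaa
Rlbp1: atttccctctgcCACATGggacagtggacc

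The windows differed in base composition, with 59.2% G or C before Lrat, 41.2% before Rgr and 40.8% before this start of Rbp4. The window before another start of Rbp4, not printed, held 70.8%.

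Other genes that bind, take up, oxidise, esterify or use retinoids were read from lists of 36 genes. Of these 30 had a probe set of their own, 16 had a mean of 5 or more and 14 were below it. Among the 16 tested, 0 passed in limma, 7 were lower and 9 higher in albino pools, and the median difference was 0.03, close to the median of 0.05 over all probe sets.

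Retinoid-binding proteins inside cells were represented by 2 tested genes, both with higher means in albino pools. Crabp2, which carries retinoic acid towards its nuclear receptors, read 10.35, 10.09 and 10.11 in albino pools against 10.00, 9.91 and 9.73 in pigmented pools, so that every albino array lay above every pigmented array. The difference was 0.30 (SE 0.12), with an unadjusted limma p of 0.0412 and an adjusted p of 0.999. Among all probe sets 7.39% had every albino array above every pigmented array and 3.22% were higher at an unadjusted limma p under 0.05. Crabp1, also a retinoic acid carrier, differed by 0.10 (SE 0.10). Rbp3, the carrier between photoreceptors and RPE, read 4.60 over all arrays and was not tested.

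Of the lipid and retinol uptake genes, Cd36, a fatty acid and lipoprotein receptor gene, read 5.98, 5.96 and 5.76 in albino pools against 5.72, 5.11 and 5.62 in pigmented pools. Its difference was 0.42 (SE 0.18, limma adjusted p = 0.999). Every albino array lay above every pigmented array, as for 7.39% of all tested probe sets. Scarb1, a lipoprotein receptor gene, read 8.04 to 8.11 and 8.12 to 8.24, with a difference of -0.08 (SE 0.09). Its groups barely parted, and the replicate 3 arrays differed by -0.01. Of all tested probe sets, 3.44% had every albino array below every pigmented array. The dehydrogenase list had 6 of 10 measured genes above 5, of which 5 were higher and 1 lower in albino pools, with 0 passing in limma. Rdh13 differed by 0.09 (SE 0.09) and Rdh14 by 0.12 (SE 0.12). Of the ester enzymes, Lpl, which encodes lipoprotein lipase, read 9.43, 8.93 and 9.14 in albino pools against 9.87, 9.55 and 9.32 in pigmented pools, an overlap set by albino replicate 1. Its difference was -0.41 (SE 0.19, limma adjusted p = 0.999), and Dgat1, which encodes an acyltransferase, differed by 0.05 (SE 0.12).

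On the photoreceptor side, 4 of 6 measured genes were below 5, among them the cone opsin genes Opn1sw at 3.58 and Opn1mw at 4.34 and the arrestin gene Sag at 4.12. Rrh, which encodes peropsin, an opsin of the RPE, read 6.53, 6.47 and 6.49 in albino pools against 6.79, 6.66 and 6.58 in pigmented pools. Every albino array lay below every pigmented array, as for 3.44% of all tested probe sets, with a difference of -0.18 (SE 0.09, limma adjusted p = 0.999). Abca4, a transporter gene that clears retinal adducts from photoreceptors and is also known from RPE, overlapped at 6.04 to 6.55 and 6.30 to 6.58, with a difference of -0.13 (SE 0.15). The carotenoid cleavage genes Bco1 and Bco2 were at 3.80 and 3.95 and were not tested.

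**Figure D4:**
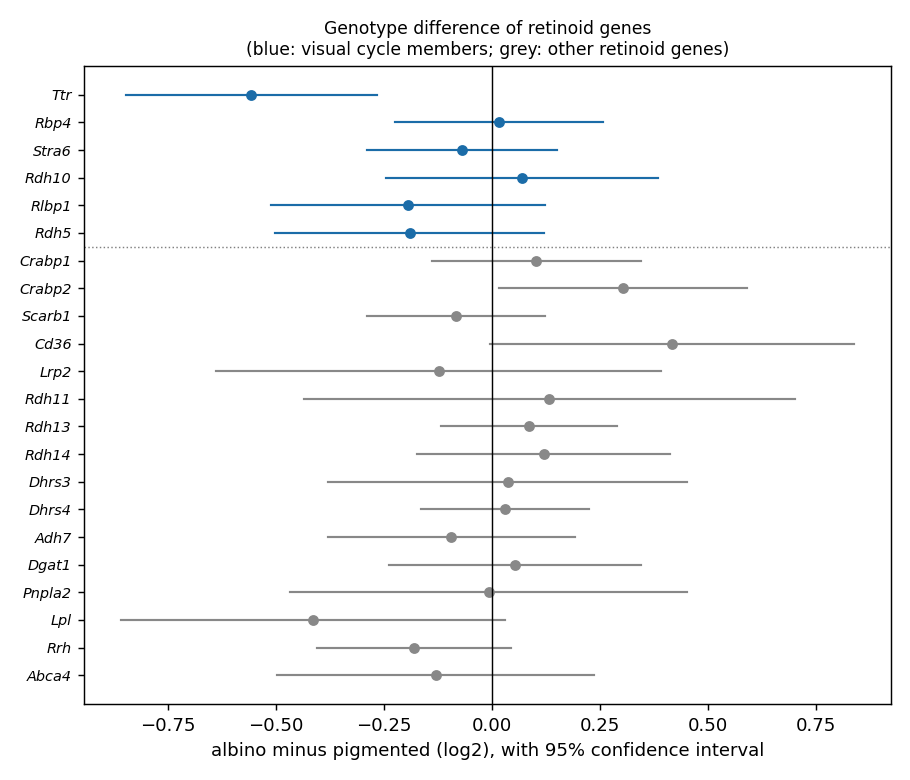
Difference between genotypes in log2 units (horizontal axis, albino minus pigmented) with its 95% confidence interval from limma for the 6 tested members (blue) and 16 other retinoid genes (grey). The interval of Ttr runs from -0.85 to -0.27, that of Crabp2 from 0.02 to 0.59, and the others hold 0; none passed after adjustment over all probe sets.

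The genes whose values ran most closely with each tested member over the 6 arrays were found among 12097 other genes by Pearson correlation. With so few arrays and so many genes high correlations arise by the search itself, and they carry no test. For Ttr these were Rhoc (r = 0.994), Col11a1 (r = 0.991) and Osbp2 (r = 0.990), with differences of -0.17, -0.34 and -0.22. For Rdh5 they were Zfp991 (r = 0.995), Tyr (r = 0.987), the melanin enzyme gene, and Dr1 (r = 0.985). For Rlbp1 they were Fam167b (r = 0.988), Sparcl1 (r = 0.987) and Cdc20 (r = 0.979), and for Rdh10 Mrpl49, Cfl1 and Slc25a12 (r = 0.994 each). Rbp4 ran with Ccdc85b (r = 0.980), LTO1 (r = 0.969) and Slc30a1 (r = 0.961), and Stra6 with Amph (r = 0.968), Zfp141 (r = 0.963) and Parvb (r = 0.957). Among the members themselves Rlbp1 and Rdh5 were the closest pair (r = 0.870) and Ttr and Rdh10 the least close (r = 0.0915), over 6 arrays that share the genotype difference and the stand-apart replicate 1 arrays.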

How the data were processed

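The authors deposited log2 expression values per probe set, produced by RMA (background correction, quantile normalization, probe summary) in Expression Console 1.1, per the submitters' processing notes. Biotin-labelled cRNA came from 100 ng of total RNA, per the labels' protocols. Array medians were 5.18 to 5.21, and quantile normalization makes each difference relative to the rest of the array. Precision is limited by having 6 arrays.

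From these values limma 3.58.1 (R 4.3.3) tested albino minus pigmented pools (lmFit, eBayes, two-sided) over 23591 probe sets with a mean of 5 or more, without 64 control probe sets, with Benjamini-Hochberg adjustment at 0.05. The limma script was tested on simulated data. Gene names are those of the platform annotation, and all 9 members matched a gene table of GRCm38.p6 by Entrez ID. The members and lists were chosen with earlier results of these data known. Other retinoid genes were named where they passed or, with none passing, as the 2 smallest p of each list; marker genes by the highest mean, with others named after their values were seen; and the 3 most correlated genes of each tested member. A gene was represented by its brightest probe set.

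Both genotypes carry replicate numbers 1 to 3, with no statement of what equal numbers share. Deviations from the genotype means correlated at 0.863, 0.687 and 0.448 between arrays of the same number. Unlike numbers gave 0.693 (albino 2, pigmented 3) and 0.546 (albino 3, pigmented 2), and -0.800 to -0.578 where replicate 1 was involved, so the correlations set replicate 1 apart and do not tell 2 from 3. The reported fit has no block, and the fit with the replicate block is an alternative. No 2 arrays were identical. Alternatives covered blocks, scaling, filters, array weights, a Y-linked covariate, probe set choice and left-out arrays.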

Additional observations from a re-analysis of the deposited data

How the results depend on the processing

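Under each of the 19 other settings 0 probe sets passed in limma, and Ttr, Rlbp1 and Rdh5 kept a negative sign. With the replicate block the difference of Ttr was -0.56 with an SE of 0.07 (limma adjusted p = 0.192), and the block changed no call. Leaving out each array in turn gave -0.65 to -0.46 for Ttr, -0.32 to -0.13 for Rlbp1, -0.29 to -0.12 for Rdh5, -0.11 to -0.02 for Stra6, 0.0033 to 0.18 for Rdh10 and -0.042 to 0.068 for Rbp4, with 4 to 5 members lower. The sign turned for Rbp4 with cyclic loess (-0.028) and with mean Y-linked expression as covariate (-0.043), for Rdh10 with that covariate (-0.051), and for Stra6 after centring on the RPE identity list (0.070), a setting added after the data were seen. The mean of both Rdh10 probe sets gave 0.00. With array weights Rlbp1 was at -0.096, Rdh10 at 0.14 and Rbp4 at 0.078. The cause of these turns and moves was not tested. The count at an unadjusted p under 0.05 was 1104, and 4243 with the replicate block, 4952 with replicate 1 arrays blocked against the rest, 3510 with array weights, 3052 without both replicate 1 arrays, 4887 after centring on the RPE list, 687 with the Y-linked covariate, 510 with the mean of probe sets of a gene, 610 without albino replicate 2 and 567 without pigmented replicate 2. The values of Lrat, Rgr and Rpe65 lie where array signal is near background, so no difference in them could be read.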
